A study of Mus musculus with 21 samples.

Results

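The 8 genes described here encode adhesion molecules of endothelial cells and leukocytes: the endothelial selectins Sele and Selp, the selectin ligand Selplg, the immunoglobulin-type adhesion molecules Vcam1, Icam1, Icam2 and Pecam1, and the junctional cadherin Cdh5. They were chosen by name from the 32285 genes of the deposited table, and all 8 were found there. A leukocyte that leaves the blood first rolls on selectins, then binds firmly through its integrins to ICAM and VCAM molecules, and finally passes the junctions between endothelial cells, where VE-cadherin (encoded by Cdh5) and PECAM-1 are held. P-selectin (Selp) is stored in Weibel-Palade bodies of endothelial cells and in platelet granules, E-selectin (Sele) is made upon inflammatory stimulation and is known from the venules of the skin. PSGL-1, encoded by Selplg, is the main leukocyte ligand of P-selectin.

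The cells came from mT/mG mice, which carry a membrane-targeted tdTomato in every cell and here had no Cre, so that host cells were red and the transplanted tumor cells were not. Fragments of the MT-ret melanoma had been placed under the skin of young adult male and female mice, the primary tumors were resected, and lung metastases that grew later were collected; lungs of unchallenged mT/mG mice served as control. Living tdTomato+ cells, in some libraries also depleted of CD45+ leukocytes, formed the libraries of the tumor microenvironment (TME), while tdTomato- malignant melanoma (MM) cells formed libraries of their own. The gate used for each library is not given in the labels, so shares of leukocytes are not compared. There were 4 lung libraries (replicates 1, 4, 5 and 6, 1 mouse each by the library names), 4 metastasis TME libraries (a pool labelled 1-3, with 2 mice by the library names, and replicates 4, 5 and 6) and 4 primary tumor TME libraries (a pool labelled 1-3, with 3 mice, and replicates 4, 5 and 6). Levels are given as CPM, UMIs of a gene scaled to the same total of UMIs in each sum of cells. Every library is labelled with lung as its tissue, primary tumors included. AT-1 alveolar marker genes summed to 994 to 1276 CPM in lung endothelial cells and to 3.82 to 188 CPM in those of primary tumors.

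After 4 libraries with values identical to another had been counted once, 100359 cells in 16 libraries remained, with a median of 1203 to 5356 UMIs (unique molecular identifiers, 1 for each captured transcript) per cell. Different libraries shared at most 1.2% of their barcodes. Cells were clustered without the 8 genes, and clusters were named from marker genes; "endothelial cells", "fibroblasts" and the leukocyte names stand below for cells of clusters with those markers, not for types established otherwise. The endothelial class held 4645 lung cells, 1617 metastasis cells and 550 primary tumor cells, and all 16 of its markers had UMIs in each of these libraries. Values are CPM of the summed UMIs of a class in a library; such a level is a mean over cells, so a change in the mix of cells within the class and a change in RNA per cell cannot be told apart. Tests used edgeR's quasi-likelihood method on these sums with Benjamini-Hochberg adjustment over all tested genes, and "called" means an adjusted p below 0.05.

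The genes lie at (GRCm38, GENCODE) chr1:164048234-164057677 on the plus strand for Sele, chr1:164115264-164150026 plus for Selp, chr3:116109949-116129688 minus for Vcam1, chr9:21015985-21028817 plus for Icam1, chr11:106377656-106388075 minus for Icam2, chr11:106654217-106750628 minus for Pecam1, chr8:104101625-104144511 plus for Cdh5 and chr5:113818536-113832644 minus for Selplg. Sele and Selp are thus neighbors on chromosome 1. For 3 of the 8 members, Sele, Selp and Icam1, a promoter was at hand (RefSeq, GRCm38.p6). The 250 bases before the start are printed because these genes, like Vcam1, are known to be induced by NF-kB. Capitals mark a match to an NF-kB-type pattern, GGG and CC with any 5 bases between them, searched on both strands.
Sele, chr1:164047984-164048233, plus strand: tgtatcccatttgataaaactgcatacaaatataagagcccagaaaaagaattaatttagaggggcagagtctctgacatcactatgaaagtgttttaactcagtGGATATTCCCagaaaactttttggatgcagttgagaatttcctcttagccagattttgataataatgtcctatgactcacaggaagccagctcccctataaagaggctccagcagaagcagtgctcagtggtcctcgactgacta
Selp, chr1:164115014-164115263, plus strand: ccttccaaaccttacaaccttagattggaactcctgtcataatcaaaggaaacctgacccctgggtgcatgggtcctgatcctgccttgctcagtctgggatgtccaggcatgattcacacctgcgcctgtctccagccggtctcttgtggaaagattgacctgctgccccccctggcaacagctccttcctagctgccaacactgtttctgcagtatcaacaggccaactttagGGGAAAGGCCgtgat
Icam1, chr9:21015690-21015939, plus strand: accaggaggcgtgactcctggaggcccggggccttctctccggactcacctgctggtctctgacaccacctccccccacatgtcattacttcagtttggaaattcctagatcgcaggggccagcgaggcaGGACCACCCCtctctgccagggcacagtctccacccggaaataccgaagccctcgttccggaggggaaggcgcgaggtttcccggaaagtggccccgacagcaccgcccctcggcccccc
The match lay at bases -145 to -136 of Sele (minus strand), -15 to -6 of Selp (plus strand) and -120 to -111 of Icam1 (minus strand), counted from the RefSeq start, which for Icam1 is 45 bases from the GENCODE start. Sele also held the letters TATAAA at -49 to -44. Of 32851 promoter windows of this length, 45.8% held this NF-kB-type pattern on either strand and 12.4% held TATAAA. A match alone therefore does not show a site, and binding was not tested.

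Endothelial cells of primary tumors stood apart by the selectins. Primary tumors had grown under the skin, while both other tissues were lung, and there was no library of normal skin. In every comparison with primary tumors, organ and tumor can therefore not be told apart. Selp was 11.5-fold higher there than in unchallenged lung and 10.6-fold lower in metastases than in primary tumors, with medians of 16.9 CPM in metastasis and 20.4 CPM in lung. Icam2 went the other way, being 4.20-fold lower in primary tumors than in lung and 2.78-fold higher in metastases than in primary tumors. Cdh5 was 1.74-fold lower in primary tumors than in lung. Of the 7 members that passed the filter on low counts, 2 were called between metastasis and primary tumor, where 11.8% of 9690 genes were called, and 3 of 7 between primary tumor and lung, where 28.2% were. None of 7 was called between metastasis and lung, where 3.38% of genes were (1 member, Cdh5, had an unadjusted p below 0.05, and DESeq2 called none either).

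Selp, the P-selectin gene, was measured in lung endothelial cells at 20.5, 3.16, 37.9 and 20.3 CPM in replicates 1, 4, 5 and 6. In metastases it was at 21.1, 3.05, 12.7 and 51.5 CPM in the pool 1-3 and replicates 4, 5 and 6, and in primary tumors at 199.7, 302, 200.1 and 164 CPM. The lowest primary tumor library thus lay above every library of the other tissues, while lung and metastasis overlapped. The log2 difference of metastasis from primary tumor was -3.41 ± 0.68 (SE, n = 4 and 4, adjusted p = 0.00454 by edgeR) and that of primary tumor from lung was 3.52 ± 0.62 (adjusted p = 0.000645 by edgeR). Metastasis differed from lung by 0.12 ± 0.68 (adjusted p = 0.965 by edgeR), an estimate that leaves room for a difference in either direction. Selp was called in all 23 alternatives of the first comparison, with log2 values from -4.32 to -2.51, and in all 21 of the second, from 2.67 to 4.11.

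The difference was also seen per cell. After thinning each cell to 1000 UMIs, a Selp UMI was found in 16.3, 20.8, 8.85 and 9.06% of endothelial cells of the primary tumor libraries, in 0.771, 0.261, 2.46 and 1.30% in lung and in 1.09, 0, 1.21 and 2.50% in metastases. In fibroblasts, which are not known to make P-selectin, the share was 0.518 to 0.769% in primary tumors and at most 0.296% in lung, at a median of 1129 to 5056 and 1545 to 6002 UMIs per cell (endothelial cells had 4932 to 6294 and 1586 to 4410). Fibroblasts of metastasis replicates 5 and 6 had a share of 0. Neutrophils had 1.11 and 1.17% in lung replicates 5 and 6 and 1.18% in primary tumor replicate 4. Primary tumor endothelium was therefore well above these shares, and some lung and metastasis libraries were within reach of them. Unthinned shares were 25.3 to 48.4% in primary tumors, 0.897 to 6.52% in lung and 0.752 to 7.62% in metastases.

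Sele, the E-selectin gene, was sparse. Lung libraries held 3, 2, 12 and 1 UMIs (1.01, 0.288, 2.02 and 0.846 CPM) and metastasis libraries 0, 0, 9 and 4 UMIs, of which the latter libraries stood at 3.17 and 5.42 CPM; a count of 0 allowed up to 15.8 CPM in the pool 1-3 and 4.57 CPM in replicate 4 (3 UMIs). Primary tumor libraries held 9, 62, 5 and 14 UMIs, or 35.95, 78.9, 7.09 and 10.6 CPM. Each primary tumor library was higher than each measured lung or metastasis value, although the limit of the metastasis pool 1-3 lay above 2 of them. The filter on low counts removed Sele from the main test. Without the filter, Sele was 4.89 ± 0.72 higher in primary tumor than in lung on the log2 scale (adjusted p = 1.28e-05 by edgeR, 16.8% of 20313 genes called) and -3.50 ± 0.76 in metastasis against primary tumor (adjusted p = 0.00379, 6.05% called). Metastasis minus lung was 1.39 ± 0.88 (adjusted p = 0.481 by edgeR without the filter, 3.52% called). In fibroblasts the same setting also called Sele higher in primary tumor than in lung (5.97 ± 1.74, adjusted p = 0.0266 by edgeR). Fibroblasts held it at 5.31, 2.71 and 4.23 CPM in primary tumor replicates 4, 5 and 6. Lung fibroblasts of replicates 4, 5 and 6 had 0, where 3 UMIs would be 8.78, 2.98 and 0.708 CPM. The part of such background in the endothelial values was not tested. By CPM, primary tumor pool 1-3 and replicate 4 held more Sele than replicates 5 and 6. The pool was sequenced in run 1, replicate 4 in run 2 and replicates 5 and 6 in run 3. Their libraries held 440, 2226, 3 and 1 macrophages in the same order. These differences cannot be told apart, and Sele was not tested within run 3.

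**Figure D1:**
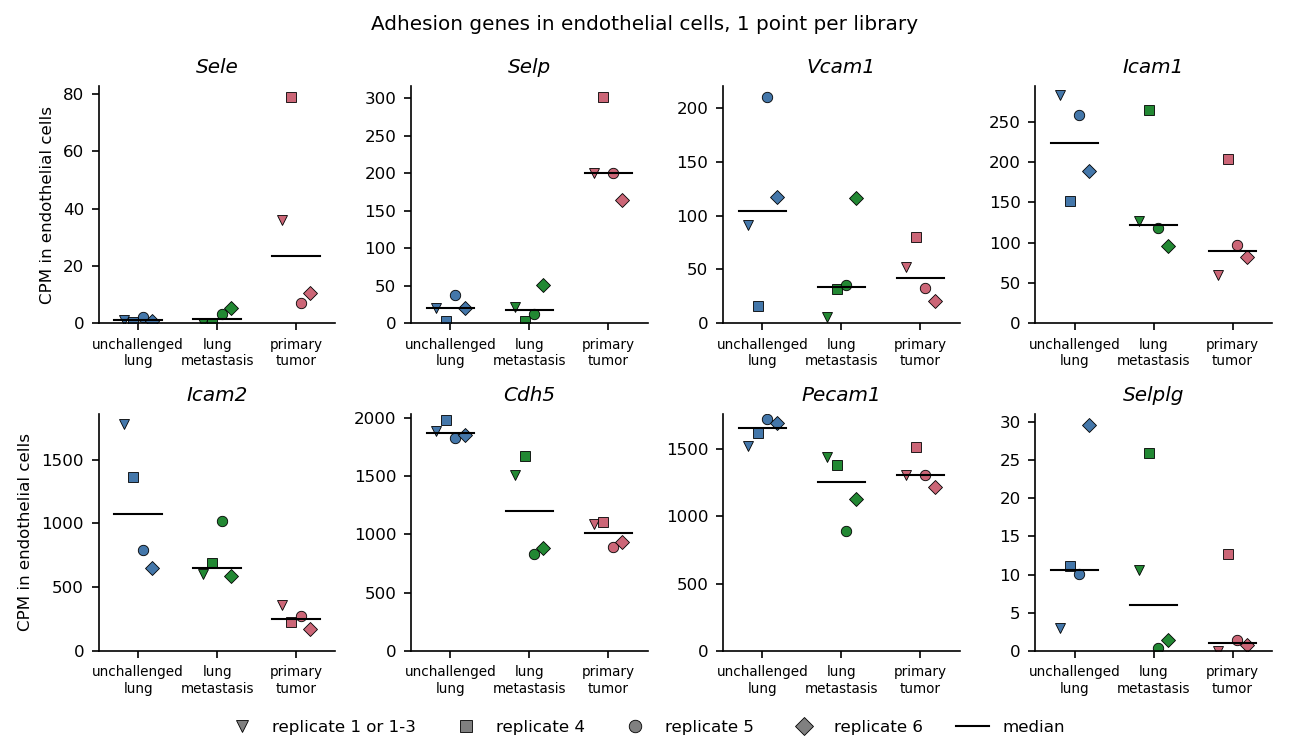
Level of each of the 8 genes in endothelial cells, 1 panel per gene, in CPM of summed UMIs (y axis) for lung, metastasis TME and primary tumor TME (x axis). Each point is 1 library, its shape the replicate, and the line is the median of 4 libraries; the Selp points of primary tumors lie at 164 to 302 CPM, above all others, and the Icam2 points of primary tumors lie at 173 to 360 CPM, below all others.

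The endothelial class was not made of the same clusters in each tissue. Lung cells fell mainly into clusters 4 and 17 (led by the capillary genes Npr3 and Car4), with 0 to 8 cells per library in cluster 19. In primary tumors, 40, 126, 115 and 257 cells were in cluster 19, against 9, 0, 1 and 0 in cluster 4. Metastasis replicates 5 and 6 held cells of both kinds, with 453 and 64 in cluster 19, whereas the pool 1-3 and replicate 4 had 5 and 7. Within cluster 19 alone, Selp was at 16.01 and 85.1 CPM in metastasis replicates 5 and 6 and at 234, 302, 203 and 164 CPM in primary tumors, a log2 difference of -2.51 ± 0.54 (n = 2 and 4, adjusted p = 0.0221 by edgeR, 2.86% of 9000 genes called). Selp was the only member called there. Sele had a log2 difference of -2.39 ± 0.97 in these cells (adjusted p = 0.28 by edgeR), with 4.87 and 10.6 CPM against 42.03, 78.9, 7.19 and 10.6 CPM, and Icam2 0.78 (adjusted p = 0.302).

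Genes of other cells moved with the tissues in these sums. Melanoma markers summed to 7.34 to 15.8 CPM in lung endothelium, 515 to 8367 CPM in metastasis and 265 to 1836 CPM in primary tumor, and fibroblast markers to 51.2 to 527, 89.6 to 1085 and 755 to 2515 CPM. Platelet markers, relevant because platelets hold P-selectin, summed to 2.01 to 5.08 CPM in lung, 6.09 to 10.5 CPM in 3 metastasis libraries with 162 CPM in replicate 6, and 23.5 to 84.0 CPM in primary tumors. Of the platelet markers, Ppbp, Gp9 and Gp1bb were at 0 in all primary tumor libraries, and Itga2b, which encodes a platelet integrin, was at 14.4 to 35.6 CPM. Nrgn, also on the platelet list, was called higher in primary tumor than in lung. Primary tumor levels of the other platelet markers are not given singly, and the part of platelet RNA in Selp was not tested. In metastasis replicate 6 Ppbp was at 37.9, Gp9 at 16.3 and Pf4 at 43.3 CPM. Without the subclusters led by genes of another class, Selp differed by -3.08 between metastasis and primary tumor (adjusted p = 0.0214 by edgeR) and by 3.45 between primary tumor and lung (adjusted p = 0.0017).

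Icam2, a constitutive ligand of the leukocyte integrin LFA-1, was measured at 1780, 1363, 792 and 651 CPM in lung, 601, 691, 1015 and 585 CPM in metastases and 360, 226, 271 and 173 CPM in primary tumors. Primary tumors were lower than every other library, and lung and metastasis overlapped. The log2 difference was -2.07 ± 0.36 for primary tumor against lung (adjusted p = 0.000554 by edgeR), 1.47 ± 0.35 for metastasis against primary tumor (adjusted p = 0.0133) and -0.60 ± 0.34 for metastasis against lung (adjusted p = 0.389). The first was called in all 21 alternatives. The second was called in 20 of 23 and lost at a finer clustering, without primary tumor replicate 6 and within cluster 19.

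Icam1 and Vcam1, the inducible ligands of leukocyte integrins, did not pass the test in any comparison of endothelial cells in the fit of all 12 libraries by tissue alone. For primary tumor against lung, Icam1 was called without primary tumor replicate 4 (-1.35, adjusted p = 0.0165 by edgeR) and with the sequencing run as a term, and both genes were called within the third run, as given below. Icam1 was at 283, 152, 259 and 189.5 CPM in lung, 127, 265, 118 and 96.1 CPM in metastases and 59.9, 204, 96.5 and 82.5 CPM in primary tumors, with overlap between all tissues. Its log2 difference was -0.84 ± 0.38 between primary tumor and lung (adjusted p = 0.116 by edgeR), -0.49 ± 0.38 between metastasis and lung (adjusted p = 0.548) and 0.35 ± 0.39 between metastasis and primary tumor (adjusted p = 0.680). Vcam1 varied more within than between tissues, at 90.8, 15.96, 210.4 and 118 CPM in lung, 5.27, 32.0, 35.2 and 116 CPM in metastases and 51.9, 80.1, 32.6 and 20.4 CPM in primary tumors. Its log2 difference was -1.15 ± 0.69 for primary tumor against lung (adjusted p = 0.235 by edgeR), -1.02 ± 0.67 for metastasis against lung (adjusted p = 0.465) and 0.13 ± 0.73 for metastasis against primary tumor (adjusted p = 0.965).

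Cdh5, which encodes VE-cadherin, was even across lung libraries at 1883, 1977, 1826 and 1854 CPM. It was at 1507, 1670, 827 and 886 CPM in metastases and 1091, 1103, 891 and 937 CPM in primary tumors, so every tumor-bearing library lay below every lung library. Primary tumor differed from lung by -0.80 ± 0.25 (adjusted p = 0.0255 by edgeR; called in 17 of 21 alternatives, and not at a finer clustering nor without lung replicate 4, primary tumor replicate 5 or primary tumor replicate 6). Metastasis differed from lung by -0.59 ± 0.25 (unadjusted p = 0.0306, adjusted p = 0.223 by edgeR) and from primary tumor by 0.21 ± 0.25 (adjusted p = 0.701). Pecam1, a molecule of endothelial junctions and of many leukocytes, was at 1522, 1618, 1722 and 1697 CPM in lung, 1444, 1383, 892 and 1127 CPM in metastases and 1310, 1519, 1308 and 1222 CPM in primary tumors. Neither tumor tissue overlapped lung (the highest primary tumor library was at 1519 and the lowest lung library at 1522 CPM), yet no comparison of Pecam1 was called, with log2 differences of -0.40 ± 0.21 for metastasis against lung (adjusted p = 0.344 by edgeR), -0.18 ± 0.21 for primary tumor against lung (adjusted p = 0.564) and -0.22 ± 0.21 for metastasis against primary tumor (adjusted p = 0.622).

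Selplg was low in endothelium, at 3.02, 11.1, 10.1 and 29.6 CPM in lung, 10.5, 25.9, 0.352 and 1.35 CPM in metastases and 0, 12.7, 1.42 and 0.757 CPM in primary tumors. The tissues overlapped and no difference was called (adjusted p from 0.341 to 0.807 by edgeR). These levels lay below those of neutrophils, NK cells, T cells, monocytes and macrophages, which were at 114 CPM or more in these tissues.

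**Figure D2:**
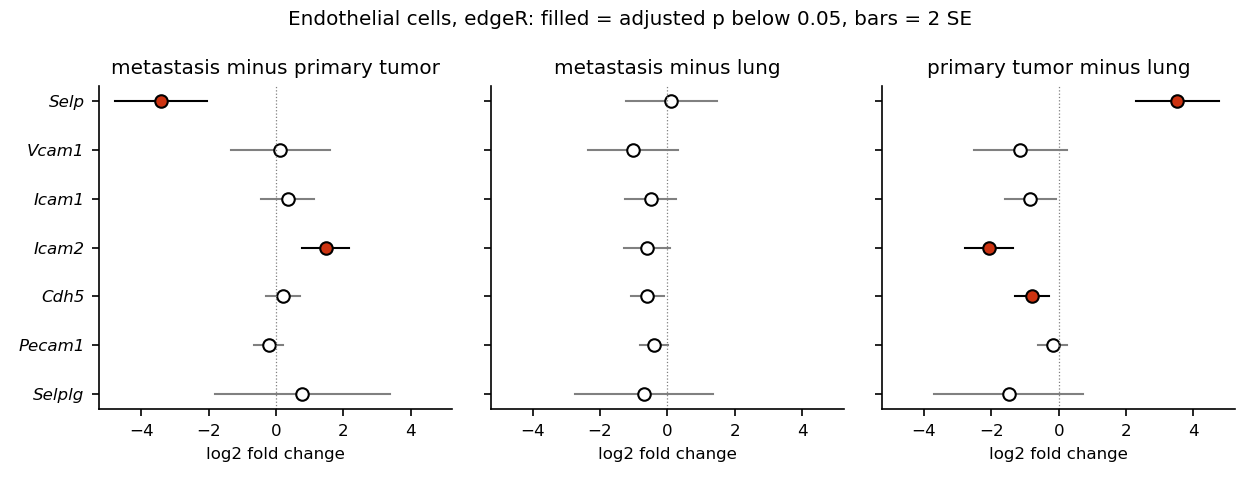
Log2 fold changes (x axis) of the 7 members tested in endothelial cells (y axis), for metastasis against primary tumor, metastasis against lung and primary tumor against lung. Points are edgeR estimates, bars are 2 SE on either side, and filled points have an adjusted p below 0.05; only Selp and Icam2 (metastasis against primary tumor) and Selp, Icam2 and Cdh5 (primary tumor against lung) are filled.

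The libraries were sequenced in 3 runs as their names give them, with the pools and lung replicate 1 in the first, replicates 4 in the second and replicates 5 and 6 in the third. With run as a term, Selp stayed called (-3.70 and 3.81, adjusted p = 0.00353 and 0.000609 by edgeR), as did Icam2 and Cdh5, and the lower Icam1 of primary tumor against lung became called (-1.02, adjusted p = 0.0484). The third run was the only one with 2 libraries per tissue. In it, 2 of 7 members were called between metastasis and primary tumor (Selp -2.75 and Icam2 1.86; 7.66% of 10568 genes called). Between metastasis and lung 3 of 7 were called, all lower in metastasis (Cdh5 -1.01, Icam1 -0.95 and Selplg -4.72; 21.8% of genes called), and between primary tumor and lung 6 of 7 (Selp 2.67 higher, and Vcam1 -2.58, Selplg -4.01, Icam2 -1.60, Icam1 -1.23 and Cdh5 -0.90 lower; 29.2% of genes called). The lower Vcam1 of primary tumor against lung was called in that run and not over all 3. Selplg also moved in cells that do not make PSGL-1: respiratory ciliated cells had it at 16.9 and 162 CPM in lung replicates 5 and 6, above the endothelial 10.1 and 29.6 CPM there, and at 0.818 and 0 CPM in metastasis replicates 5 and 6. The part of leukocyte UMIs in the Selplg calls of this run was not tested.

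The endothelial cells were split further into 18 subclusters, again without the 8 genes, and 13 of them could be named from subtype markers. These levels are descriptions of pooled cells, with no test. General capillary-like cells (lung subclusters of 1391, 728 and 369 cells) held almost no selectin, with Selp at 0 to 0.329 CPM, Vcam1 at 2.14 to 12.4 CPM, and Icam1 at 100.0 to 121 CPM. Aerocyte-like capillary cells held more of the ICAM genes. In lung, 702 such cells had Icam2 at 1382 and Icam1 at 415 CPM, and another 274 had Icam2 at 2953 and Icam1 at 407 CPM. In metastases 197 had Icam2 at 2845 and Icam1 at 293 CPM; 9 of the 10 melanoma markers were also raised in their subcluster. Selp was at 2.31 CPM or less in all 3 groups. The selectins and Vcam1 of the lung lay in venous-like and arterial-like cells. In 499 venous-like lung cells Selp was at 139, Vcam1 at 752, Icam1 at 298.5 and Sele at 3.85 CPM. In 144 arterial-like lung cells Selp was at 149.8, Vcam1 at 557 and Sele at 18.1 CPM. A second venous-like group of 152 lung cells had Selp at 25.9 and Vcam1 at 244 CPM. Lung libraries were pooled in these groups and did not add to them evenly. Over all lung endothelial cells, replicate 5 had the highest Selp and Vcam1 (37.9 and 210.4 CPM) and replicate 4 the lowest (3.16 and 15.96 CPM). The 22 venous-like cells of metastases had Selp at 179 and Vcam1 at 369 CPM, and the 21 arterial-like cells of primary tumors had Selp at 69.3 and Vcam1 at 464 CPM.

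The largest named subcluster was another one in each tumor tissue. In primary tumors 284 of the 550 cells fell into a subcluster with tip or angiogenic markers, which had Selp at 284, Sele at 40.4, Vcam1 at 24.4, Icam1 at 137, Icam2 at 191, Cdh5 at 1124 and Pecam1 at 1528 CPM. In metastases 326 of the 1617 cells fell into another subcluster with the same kind of markers, which had Selp at 17.7, Sele at 0.883, Vcam1 at 21.2, Icam1 at 44.1, Icam2 at 521, Cdh5 at 849 and Pecam1 at 911 CPM, with 86.5% of them from 1 library. All 10 melanoma markers were raised in this metastasis subcluster, and 5 fibroblast and 3 macrophage markers in that of the primary tumors; their part in the values was not tested. A dividing subcluster with the same markers had cells of both, with Selp at 15.6 CPM in 51 metastasis cells and 45.3 CPM in 21 primary tumor cells. It had 8 melanoma and 3 fibroblast markers raised. High Selp and low Vcam1 thus stood together in the primary tumor subcluster, while in the larger venous-like and the arterial-like group of lung cells both were high. The 54 lymphatic-like cells of primary tumors had no UMI of Sele, Selp or Vcam1, with Icam1 at 75.2, Icam2 at 132, Cdh5 at 414 and Pecam1 at 602 CPM. Their subcluster had 4 fibroblast and 4 macrophage markers raised. The 5 unnamed subclusters were led by genes of melanoma cells (741 metastasis cells, more than in any other subcluster), of leukocytes and lung epithelium (346 lung cells), of fibroblasts (139 primary tumor cells), of T cells, and by Epha5, Sox6 and Pax3 (30 cells of 1 metastasis library, with 10 melanoma markers raised). They also carried Cdh5 at 285 to 1195 CPM.

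**Figure D3:**
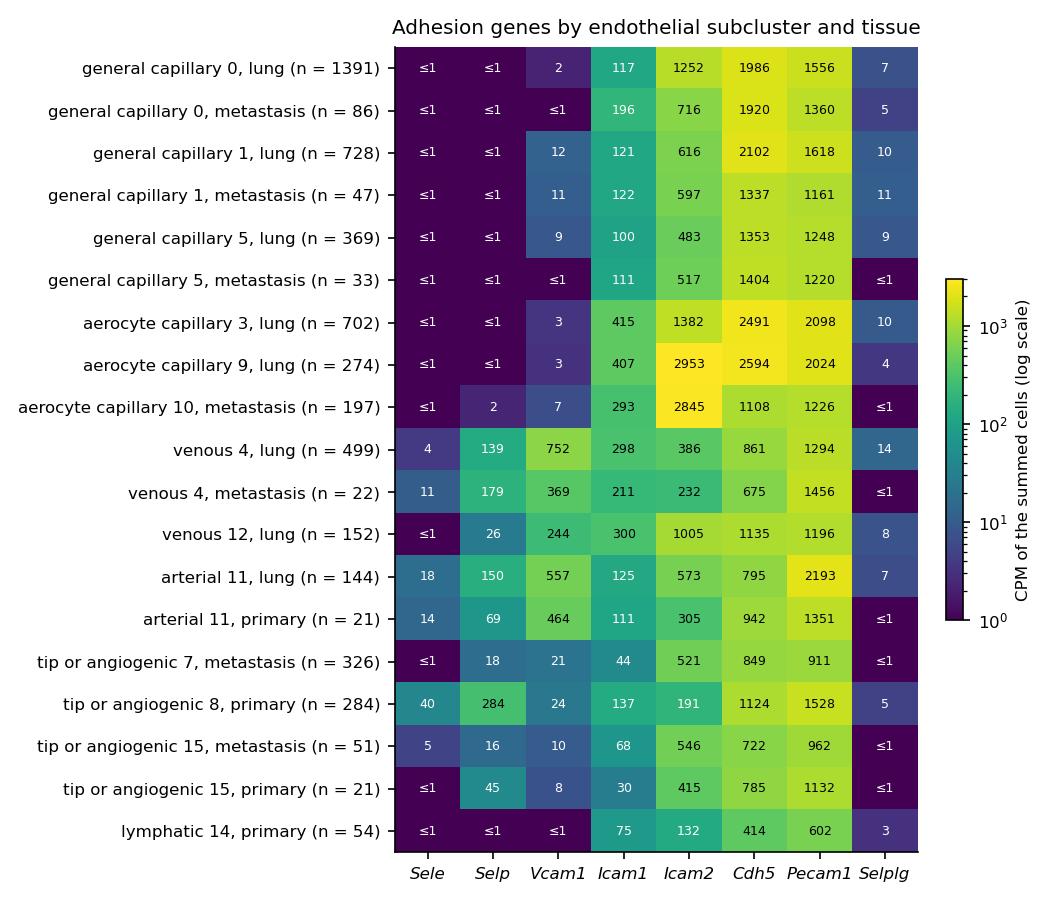
Level of the 8 genes in CPM of pooled UMIs by endothelial subcluster and tissue, for groups of at least 20 cells, with the number of cells given for each. Among named groups, Selp reaches 139 to 284 CPM in the larger venous-like and the arterial-like lung group, in the 22 venous-like metastasis cells and in the 284 tip or angiogenic cells of primary tumors, and is at most 2.31 CPM in capillary-like groups.

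The members were also counted within single cells (cells thinned to 1000 UMIs, described without a test since cells of a library are not replicates). In lung, 57 of 4434 endothelial cells had a Selp UMI; 36.8% of them also had Vcam1, against 5.12% of the cells without Selp. The same cells had Icam2 less often, 26.3% against 54.3%, and Cdh5 in 49.1% against 76.7%. Libraries of a tissue were pooled in these counts, so differences between libraries and between cells cannot be told apart. Lung replicates 1, 4, 5 and 6 had Selp in 0.771, 0.261, 2.46 and 1.30% of thinned endothelial cells. They had Icam2 in 70.6, 63.1, 41.5 and 40.2% and Vcam1 in 4.24, 1.31, 9.44 and 7.61%. In primary tumors 66 of 536 cells had Selp, and Vcam1 was found in 4.55% of these against 2.55% of the rest, Icam1 in 13.6% against 7.23% and Pecam1 in 84.8% against 65.1%. Sele and Selp UMIs met in 3 primary tumor cells, or 4.55% of those with Selp against 1.28% of those without. In metastases 19 of 1494 cells had Selp, and 21.1% of them had Vcam1 against 2.31% of the others.

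Other genes of the adhesion cascade were tested in the same endothelial sums, from lists chosen for their role; the shares of all genes called, 28.2% for primary tumor against lung, 11.8% for metastasis against primary tumor and 3.38% for metastasis against lung, are the background of each count. Of 13 genes listed with other sialomucins and addressins, a mixed list that also holds receptors and adhesion molecules of other kinds, 8 passed the filter. Of these, 4 were higher in primary tumor than in lung and 2 lower, and 4 were lower and 1 higher in metastasis than in primary tumor (list medians 1.23 and -1.40, against -0.03 and 0.06 for all genes). Ackr1, the chemokine receptor that marks venules, was at 120 to 156 CPM in primary tumors, 0.144 to 5.56 CPM in lung and 1.52 to 21.1 CPM in metastases; its log2 difference was 5.53 ± 0.60 for primary tumor against lung (adjusted p = 1.83e-05 by edgeR) and -5.13 ± 0.71 for metastasis against primary tumor (adjusted p = 0.00045). Stab1 (1.88 and -1.59), Mmrn2 (1.81 and -1.80) and Emcn moved the same way as Ackr1, and Clec14a went the other way (-1.95 for primary tumor against lung). Between metastasis and lung none of 8 was called, and Podxl had the lowest p (-0.61, adjusted p = 0.316).

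NF-kB targets and feedback genes, known to rise when endothelium is inflamed, were called in both directions. Of 15 tested, 5 were higher and 4 lower in primary tumor than in lung (list median -0.27; 28.2% of all genes called). Ccl2, a monocyte chemokine, was higher by 5.86 ± 0.69 (adjusted p = 2.83e-05 by edgeR) and Traf1 by 2.65 ± 0.31, while Irf1 (-2.06) and Csf1 (-1.62) were lower. Ccl2 was also among the leading genes of the fibroblast-led subcluster, which held 139 primary tumor cells, and was called higher in primary tumor than in lung in fibroblasts, macrophages and neutrophils too; the part of such cells in its endothelial level was not tested. Between metastasis and primary tumor the same 4 genes were called with the opposite sign (11.8% of all genes called; Ccl2 -3.73, Traf1 -2.93, Csf1 1.74, Irf1 1.46; list median -0.31), and between metastasis and lung none was called (Tnfaip3 had the lowest p, -1.50, adjusted p = 0.075). Of the 10 cytokine receptors, the interleukin-1 receptor gene Il1r1 was higher in primary tumor than in lung (0.92, adjusted p = 0.0338 by edgeR) and lower in metastasis than in primary tumor (-1.21, adjusted p = 0.0294), and Il1rap (-1.19) and Il4ra (-0.82) were lower in primary tumor than in lung. The list medians were 0.17 for primary tumor against lung and -0.26 for metastasis against primary tumor. None of the 10 was called between metastasis and lung, where Ifngr2 had the lowest p (-0.63, adjusted p = 0.19).

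The genes around the stored P-selectin and its ligand were mixed, with calls for 3 of 10 and 4 of 11 genes of the following lists in primary tumor against lung, where 28.2% of all genes were called, and for 2 of 10 and 4 of 11 in metastasis against primary tumor, where 11.8% were. Of 10 Weibel-Palade body genes tested (list medians -0.14 for primary tumor against lung, 0.28 for metastasis against primary tumor and 0.10 for metastasis against lung), Angpt2 (2.80, adjusted p = 0.00414 by edgeR) and Cd63 (3.99, adjusted p = 0.00141) were higher in primary tumor than in lung and Rab27a lower (-1.48), and Rab27a (1.52) and Edn1 (0.98) were higher in metastasis than in primary tumor. Cd63 was also higher in metastasis than in lung (4.57, adjusted p = 0.00488); Cd63 is a strong gene of melanoma cells, whose markers moved with it, and their part was not tested. Of 11 glycosylation genes that build selectin ligands (list medians 0.08, -0.27 and 0.01 in the same order), the sulfotransferase gene Chst2 was higher in primary tumor than in lung (1.23) and lower in metastasis than in primary tumor (-2.69 ± 0.40, adjusted p = 0.000757 by edgeR), as were St3gal4 (0.93 and -0.78) and B3gnt3 (0.99 and -0.94), and St3gal6 was the reverse (-1.72 and 1.30). Chst2 was not called between metastasis and lung (-1.45, adjusted p = 0.059). Of the 3 platelet markers tested, Itga2b was higher in primary tumor than in lung (6.09, from 0 to 0.337 CPM in lung) and lower in metastasis than in primary tumor (-2.70), and Nrgn was higher in both tumor tissues than in lung (3.79 and 3.64).

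Of 18 junction genes tested beside Cdh5 and Pecam1, 8 were lower and 3 higher in primary tumor than in lung (list median -0.54; 28.2% of all genes called). In metastasis against primary tumor 6 were higher and 2 lower (0.23; 11.8%), and in metastasis against lung 1 was higher and 1 lower (-0.13; 3.38%). Cldn5, the claudin of endothelial tight junctions, was at 254 to 734 CPM in primary tumors, 1072 to 2461 CPM in metastases and 2075 to 4203 CPM in lung (-2.42 for primary tumor against lung and 1.62 for metastasis against primary tumor). Ocln (occludin) followed it, at 0 to 7.99, 10.9 to 44.2 and 42.3 to 58.4 CPM (-5.05 and 4.33), as did Jup between metastasis and primary tumor (1.54). Nectin2 rose in primary tumor against lung (4.62) and in metastasis against lung (2.86) and was lower in metastasis than in primary tumor (-1.76), and Nectin3 was lower than in lung in both (-2.34 and -1.18). Of 10 integrin genes and integrin-side partners tested in endothelium, 4 were higher and 3 lower in primary tumor than in lung, 2 higher and 2 lower in metastasis than in primary tumor, and 1 higher in metastasis than in lung (28.2%, 11.8% and 3.38% of all genes called; list medians 0.07, 0.02 and 0.25 in the same order). Itgb3 was higher in primary tumor (3.48) and in metastasis (2.91) than in lung, Itga9 was higher in primary tumor than in lung (2.33) and lower in metastasis than in primary tumor (-1.81), Itga5 was lower in metastasis than in primary tumor (-0.84), and Itga4 (2.28) and Cd44 (1.44) were higher there. Itga4 (-1.73) and the leukocyte integrin Itgal (-4.20) were lower in primary tumor than in lung.

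Outside endothelium, the 8 genes separated along known lines. Median levels of Cdh5 and Pecam1 in lung were 1868 and 1658 CPM in endothelial cells, against 32.2 and 28.8 CPM in fibroblasts. Fibroblasts of lung replicate 6 stood higher, at 139.9 and 138.2 CPM. Selplg had medians of 827 CPM in lung neutrophils, 561 CPM in NK cells, 371 CPM in T cells, 279 CPM in classical monocytes, 263 CPM in nonclassical monocytes, 222 CPM in macrophages and 197 CPM in B cells; the ranges of T cells (353 to 409 CPM) and NK cells (425 to 565 CPM) did not overlap over 3 libraries each, while those of the monocyte classes did. In melanoma cells Selplg was at 0.58 to 5.30 CPM. Respiratory ciliated cells, which do not make PSGL-1, had Selplg at 162 CPM in lung replicate 6 and at 16.9 CPM in replicate 5. Replicate 1 had 0, where 3 UMIs would be 21.2 CPM. The source of these Selplg UMIs in ciliated cells was not tested.

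**Figure D4:**
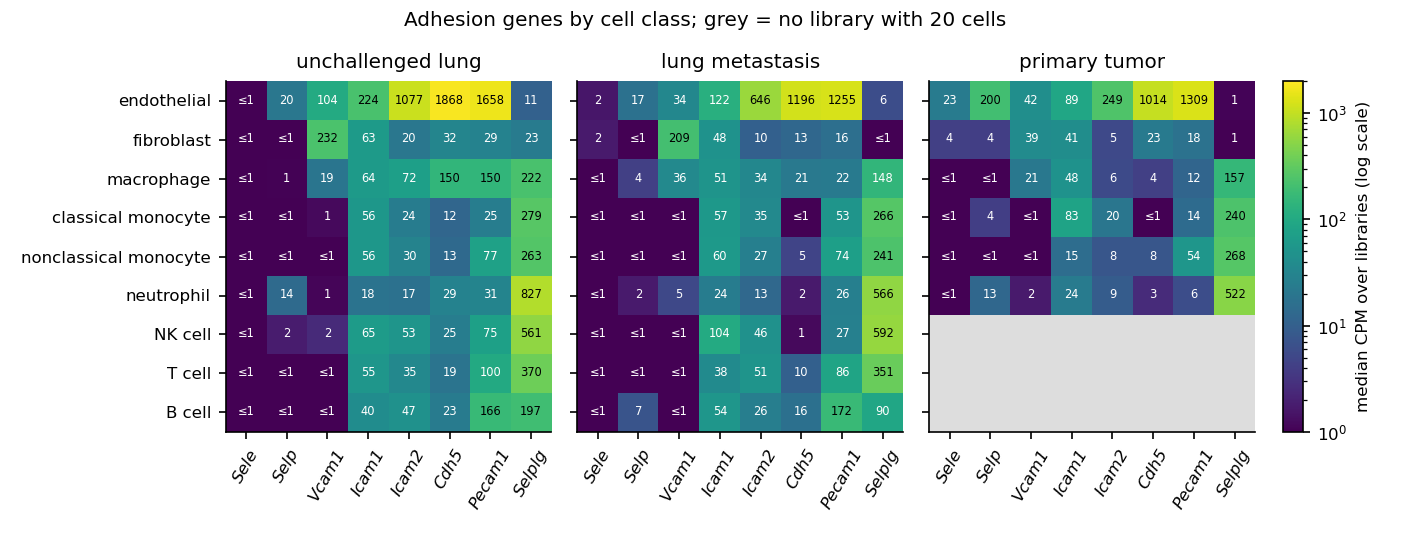
Median CPM over libraries of each of the 8 genes (columns) in 9 cell classes (rows) of lung, metastasis TME and primary tumor TME, on a log color scale. Grey fields had no library with 20 cells; Cdh5, Pecam1 and Icam2 are highest in endothelial cells, Vcam1 outside endothelium is highest in fibroblasts, and Selplg is highest in neutrophils, NK and T cells.

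Fibroblasts differed in Vcam1, but the class was made of different clusters in each tissue. The tested libraries held 71, 168 and 2252 cells of the class in lung, 432 and 53 in metastases and 193, 136 and 2051 in primary tumors. Many of these cells fell into subclusters led by genes of another class, as given below. Vcam1 was at 275, 232 and 90.6 CPM in lung (replicates 4, 5 and 6), 173 and 245 CPM in metastases (replicates 5 and 6) and 39.0, 46.0 and 32.4 CPM in primary tumors (replicates 4, 5 and 6). Every primary tumor library was thus below every other. The log2 difference was -2.26 ± 0.43 for primary tumor against lung (4.77-fold lower, adjusted p = 0.0126 by edgeR) and 2.37 ± 0.46 for metastasis against primary tumor (5.17-fold higher, adjusted p = 0.0498); metastasis against lung was 0.11 ± 0.45 (adjusted p = 0.930). Vcam1 was the 1 member of 6 called in each of the first comparisons, where 11.9% and 1.05% of 11157 genes were called. None was called between metastasis and lung, where 0.86% were (2 members had an unadjusted p below 0.05, and DESeq2 called 1). The difference from lung was called in 14 of 15 alternatives (not without primary tumor replicate 6, adjusted p = 0.0685), but that between metastasis and primary tumor in 6 of 14, with log2 values between 2.14 and 2.53 throughout. It was lost at a finer clustering, with the 8 genes kept in the clustering, and without any 1 of lung replicate 5, metastasis replicates 5 and 6 or primary tumor replicates 4, 5 and 6.

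Of the tested lung libraries, 58, 149 and 2240 cells were in cluster 7 (led by Inmt and Clec3b). In primary tumor replicates 4, 5 and 6, 192, 120 and 461 cells were in cluster 18 (led by Meg3 and Col1a1), and 1590 cells of replicate 6 were in cluster 14. Metastasis replicate 5 had 139 cells in cluster 7 and 282 in cluster 18, and replicate 6 had 4 and 44. The difference in Vcam1 and that in clusters cannot be told apart over the whole class. In addition, 243 metastasis cells fell into a subcluster led by mesothelial genes, with 86.4% of them from 1 library and Vcam1 at 240.1 CPM. In lung, 547, 522 and 346 cells were in subclusters led by genes of respiratory ciliated cells, macrophages and AT-2 cells, with Vcam1 at 58.8, 42.6 and 60.4 CPM.

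The fibroblast sums held genes of other cells. Macrophage markers summed to 1976 to 4829 CPM in lung fibroblasts, 759 to 1730 CPM in metastasis and 106 to 1284 CPM in primary tumor, and neutrophil markers to 6599 CPM in lung replicate 6. Melanoma markers summed to 2.93 to 48.6 CPM in lung, 1116 and 4818 CPM in metastasis and 547 to 5245 CPM in primary tumor, where 1520 cells formed a melanoma-led subcluster. Without the subclusters led by another class, Vcam1 was lower by 2.36 in primary tumor than in lung (log2 -2.36, adjusted p = 0.00484 by edgeR); the metastasis comparisons could not be fitted in that setting. Icam1 in fibroblasts was at 58.5, 75.4 and 63.0 CPM in lung, 64.4 and 31.5 CPM in metastases and 39.0, 60.9 and 41.1 CPM in primary tumors, with overlap and no call. Selplg was at 23.4, 8.93 and 175.5 CPM in lung, 0 and 0 in metastases and 7.97, 0 and 1.01 CPM in primary tumors, with the highest value in replicate 6, whose neutrophil markers were also the highest.

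In fibroblasts 1 of 8 genes tested from the mixed list of sialomucins and addressins was called, Alcam, a cell adhesion molecule of mesenchymal cells. It was lower in primary tumor than in lung (-4.13 ± 0.46, adjusted p = 0.00203 by edgeR; 11.9% of all genes called) and higher in metastasis than in primary tumor (2.71 ± 0.48, adjusted p = 0.0367; 1.05% called), with the same signs as Vcam1. Of 19 junction genes, 3 were higher in primary tumor than in lung, 1 higher in metastasis than in primary tumor and 2 higher in metastasis than in lung (0.86% of all genes called), and none was lower. Nectin2 was higher in metastasis than in lung (3.48) and than in primary tumor (1.74) and higher in primary tumor than in lung (1.74). Cdh2, the N-cadherin gene, which melanoma cells also use, was higher in both tumor tissues than in lung (5.77 and 4.45), and Mcam, another adhesion gene known from melanoma cells, was higher in primary tumor than in lung (2.09). Of 17 NF-kB targets, 3 were higher in primary tumor than in lung (Ccl2, Cxcl1 and Relb; list median -0.06 against -0.04 for all genes, of which 11.9% were called) and none lower, and none was called in the other comparisons.

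**Figure D5:**
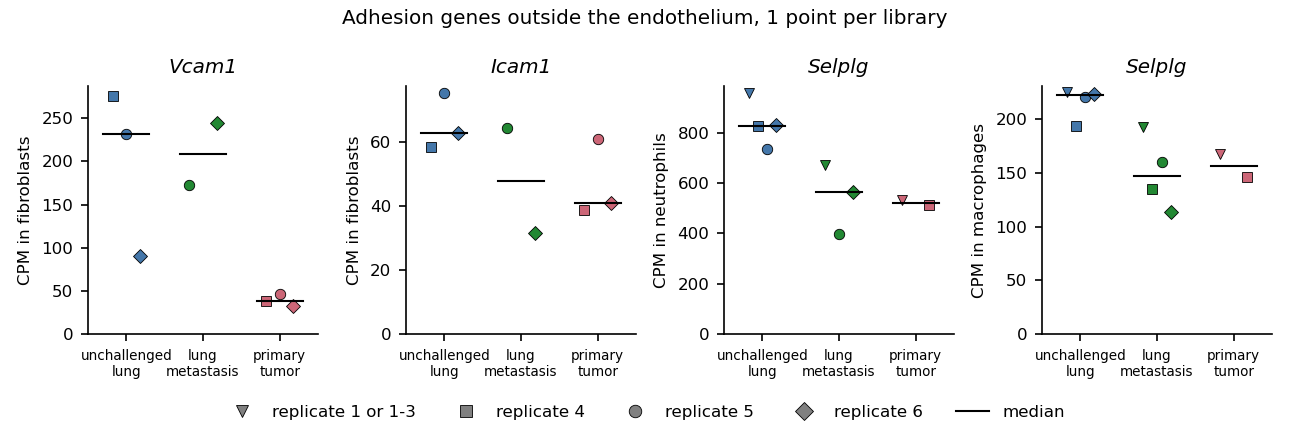
Levels in CPM of Vcam1 and Icam1 in fibroblasts and of Selplg in neutrophils and macrophages (panels), by tissue, 1 point per library with at least 20 cells and a line at the median. Vcam1 of primary tumor fibroblasts lies at 32.4 to 46.0 CPM, below all other libraries, and Selplg of lung neutrophils at 735 to 957 CPM, above the TME libraries of both tumor tissues.

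Neutrophils carried the most Selplg of the lung classes; in metastases NK cells were within their range. Lung libraries had 957, 824, 735 and 829.2 CPM (27, 52, 992 and 462 cells), metastasis libraries 671, 396 and 566 CPM (pool 1-3 and replicates 5 and 6; 139, 41 and 176 cells) and primary tumor libraries 531 and 513 CPM (pool 1-3 and replicate 4; 33 and 254 cells). Every TME library of either tumor tissue was below every lung library. The 63 neutrophils of the metastasis MM library of replicate 4, which was in no test, had 756 CPM, within the lung range. The log2 differences, -0.53 ± 0.26 for metastasis against lung (adjusted p = 0.177 by edgeR) and -0.58 ± 0.30 for primary tumor against lung (adjusted p = 0.257), were not called. Selplg was the 1 member that passed the filter, and over all 3937 genes 0.229%, 14.5% and 7.59% were called for metastasis against primary tumor, metastasis against lung and primary tumor against lung. DESeq2 called none either, and Selplg had an unadjusted p of 0.0596 for metastasis against lung (edgeR) as its lowest. In settings that kept more genes, Cdh5 was called lower in the tumor tissues. It was at 15.7 to 45.3 CPM in lung neutrophils, 0 to 4.33 CPM in metastasis and 0 to 5.15 CPM in primary tumor neutrophils, which are not known to make it. A count of 0 allowed up to 39.6 CPM in metastasis replicate 5 and 39.8 CPM in the primary tumor pool 1-3 (3 UMIs). The 15.7 CPM of lung replicate 1 was 1 UMI. Among the integrin-side partners in neutrophils, Itgal (log2 -0.86) and Itgb7 (-2.04) were called lower and Itgb1 higher (1.32) in metastasis than in lung, where 14.5% of all genes were called.

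In macrophages Selplg was at 226, 194, 221 and 224 CPM in lung, 193, 135, 161 and 114 CPM in metastases (pool 1-3 and replicates 4, 5 and 6) and 168 and 146 CPM in primary tumors (pool 1-3 and replicate 4). Lung lay above the tumor tissues by a small margin, and the differences were not called (-0.44 ± 0.23 for metastasis against lung, adjusted p = 0.345 by edgeR, and -0.29 for primary tumor against lung, adjusted p = 0.509). NK cells had 565, 561 and 425 CPM in lung and 593 and 591 CPM in metastases, and T cells 409, 371 and 353 CPM in lung and 355 and 347 CPM in metastases. Classical monocytes ranged from 238 to 317 CPM in lung, 186 to 293 CPM in metastases and 225 to 255 CPM in primary tumors, with overlap.

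The members called in macrophages are best known from endothelium. Cdh5 was at 19.8, 119, 182 and 231 CPM in lung macrophages, 17.9, 6.42, 29.2 and 24.7 CPM in metastases and 5.56 and 2.89 CPM in primary tumors, and Pecam1 at 28.7, 139, 162 and 232 CPM, 23.4, 0, 29.2 and 20.9 CPM and 13.3 and 10.6 CPM. In metastasis against lung, 2 of 7 members were called (Cdh5 -2.67 and Pecam1 -2.63; 2.1% of 11104 genes called), and in primary tumor against lung 3 of 7 (Cdh5 -4.98, Icam2 -3.59 and Pecam1 -3.39; 16.1% called). The calls between metastasis and lung were held in 4 of 16 alternatives for Cdh5 (log2 -3.13 to -1.47) and in 5 of 17 for Pecam1 (-3.12 to -1.13). They were lost for Cdh5 without any 1 of lung replicates 4, 5 and 6, the 4 metastasis libraries or the primary tumor pool 1-3 and replicate 4, and for Pecam1 without any 1 of the same libraries other than lung replicate 4. Between primary tumor and lung Cdh5 was called in 15 of 16 alternatives (not without primary tumor replicate 4), and Icam2 and Pecam1 in 13 of 17 each (not without the primary tumor pool 1-3 or replicate 4, at a finer clustering or with the 8 genes kept in the clustering). Between metastasis and primary tumor none of 7 was called (0.756% of genes; 3 members had an unadjusted p below 0.05, DESeq2 called 1, and the fit with the replicate number as a block called 2). The summed level of 16 endothelial markers moved with them, at 563, 1862, 2263 and 2506 CPM in lung macrophages, 161 to 750 CPM in metastases and 146 and 159 CPM in primary tumors, lowest in the same lung replicate 1 that had the lowest Cdh5. Respiratory ciliated cells of lung replicate 6 also held Cdh5 at 118 and Pecam1 at 125 CPM. The part of these endothelial UMIs in the macrophage values was not tested.

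The macrophage class was made of cluster 3, of alveolar kind (led by Fabp1 and Ear1), and cluster 6 (C1qb, C1qc, Arg1). Lung replicates 1, 4, 5 and 6 had 166, 42, 288 and 6143 cells in cluster 3 and 49, 53, 55 and 283 in cluster 6. The metastasis pool 1-3 had 141 in each, metastasis replicates 4, 5 and 6 had 5, 9 and 9 in cluster 3 and 26, 31 and 79 in cluster 6, and the tested primary tumor libraries had 440 and 2226 in cluster 6 and 0 in cluster 3. Within cluster 6 alone, 3 members were lower in primary tumor than in lung (Pecam1 -2.50, Icam2 -2.09 and Vcam1 -1.62, adjusted p = 0.0199, 0.0426 and 0.0353 by edgeR, 6.58% of 6886 genes called). Selplg and Icam1 were tested there and not called (adjusted p = 0.450 and 0.315 by edgeR). Cdh5 was not tested within cluster 6, where it was at 16.2, 8.74, 12.7 and 93.8 CPM in lung and 5.56 and 2.89 CPM in primary tumors. Over the whole class Vcam1 was at 6.15 to 52.1 CPM in lung, 4.87 to 64.2 CPM in metastases and 15.2 and 27.1 CPM in primary tumors, without a call (0.16 ± 0.57 for primary tumor against lung, the opposite sign to that within cluster 6; adjusted p = 0.890 by edgeR). Icam1 was at 62.6 to 69.5 CPM in lung, 43.8 to 64.2 CPM in metastases and 45.6 and 49.6 CPM in primary tumors, and no difference was called.

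Across all 95 sums of a class in a library, the genes most like Sele, Selp, Vcam1, Icam1 and Selplg were named by Pearson's r of log2(CPM + 1), as a description with no p, since sums of 1 library share depth and free RNA. Nts (r = 0.844), Ackr1 (0.811) and Mmrn1 (0.802) were most like Sele, and Sema6b (0.698), Adgrg3 (0.683) and Syt15 (0.665) most like Selp. Nts and Mmrn1 were also among the lymphatic markers, while the lymphatic-like cells of primary tumors had no Sele UMI. A likeness over sums does not place genes in the same cells. Colec12 (0.789) and Eln (0.772) were among those most like Vcam1, with levels shared by endothelium and fibroblasts. Icam1 had no close companion, its highest being Ly6e (0.653), Ece1 (0.629) and Dram2 (0.624). Selplg was matched most closely by pan-leukocyte genes, Cd53 (0.965), Bin2 (0.958) and the integrin gene Itgb2 (0.956).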

How the data were processed

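Single cells of mouse lung, melanoma lung metastasis and primary melanoma were profiled with the 10x Genomics 3′ v3.1 kit. Per the labels, reads were processed with Cell Ranger 6.1.1 and Seurat 3.2.2; the genome build named there is GRCm38 (mm10). The authors deposited 1 table of raw UMI counts (32285 genes, 110283 barcodes that had passed their filters, fewer than the number of cells the study gives) with a library name for each barcode. A deposited table of normalized values was not used. Library names were matched to the labels, and 1 of 24 names was not used. No doublet caller was run and no cell was removed. Intervals, shares and floors cover counting error only.

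Cells were clustered with Seurat 5.3.0 (2000 variable genes without the 8 members, 17 principal components, 20 neighbors, resolution 0.5), and clusters were named from marker genes. Raw UMIs were summed per class and library with at least 20 cells; total endothelial UMIs per library were 189774 to 6952785. Sums of lung, metastasis TME and primary tumor TME libraries were tested in 1 fit per class with edgeR 4.0.16 (TMM, filterByExpr, quasi-likelihood). Members of a class, subclusters and single cells were described without a test. Alternatives were DESeq2 1.42.0, no filter, a replicate block, resolution 1.0, members kept in the clustering, at least 50 cells, leaving out subclusters led by another class or each library; single clusters, the sequencing run and blocks of the same mice were added after seeing the data. Library names give the same mice for metastasis and primary tumor replicates 1-3 (in part), 5 and 6, and different mice for replicates 4. Of the libraries with identical values, the names give different mice, and some names carry a replicate number other than the label, so that mice are known only as named. The labels name no separate cultures, and the spread between libraries is that between mice or pools. Named genes were all members, of each gene list at most 4 called genes per comparison by size of change (or the 1 with the lowest p), and the 3 genes most like a member. Some genes this rule names are not reported here. The members and lists were chosen with earlier results of these data known. The scripts were tested on simulated data. Analyses used Python 3.11.15 and R 4.3.3.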

Additional observations from a re-analysis of the deposited data

Results flagged for a closer look

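Of 43 groups of 4 libraries tested for a library that stands apart, 2 held one, and chance gives about 1 in 20. Selplg in endothelial cells was at 12.7 CPM in primary tumor replicate 4, whereas the other primary tumor libraries lay at 0 to 1.42 CPM. In lung macrophages Selplg was at 194 CPM in replicate 4, below the 221 to 226 CPM of the other lung libraries. Neither changed a call.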

How the results depend on the processing

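For 38 log2 fold changes (the 7 members tested in endothelial cells, without Sele, the members called elsewhere, Vcam1 in fibroblasts and macrophages, and Selplg in macrophages and neutrophils), the alternatives gave 729 values. Of these, 641 kept their direction and their side of the threshold, 49 kept the direction but were no longer called, 8 kept it and became called and 31 changed sign. The members called in endothelial cells between metastasis and primary tumor were 2 in the fit reported, 1 at resolution 1.0 and 1 within cluster 19, and 1 to 3 when a library was left out. Between metastasis and lung the count went from 0 to 3 in run 3 alone, and between primary tumor and lung from 3 to 6 in run 3 alone. Values near 0 changed sign. Vcam1 between metastasis and primary tumor was -0.013 with DESeq2, -0.186 with the replicate block, -0.128 with run as a term and -0.646 to 0.661 when a library was left out, and Icam1 was -0.662 within cluster 19 and -0.065 to 0.85 when a library was left out. Cdh5 there was -0.107 in run 3 alone and -0.369 within cluster 19, and Selplg -0.714 in run 3 alone and -1.62 to 2.99 without a library. For metastasis against lung, Selp was -0.080 in run 3 alone, -0.693 within cluster 4 and -0.805 to 0.709 without a library, Icam2 was 0.267 in run 3 alone and 0.221 within cluster 17, and Selplg was -3.12 to 0.063 without a library. Pecam1 between primary tumor and lung was 0.017 at resolution 1.0. Vcam1 of fibroblasts between metastasis and lung was -0.248 to 0.339 without a library. Vcam1 of macrophages was -0.400 within cluster 6 between metastasis and lung; between primary tumor and lung it was -0.042 with DESeq2, -0.777 with the replicate block, -0.053 with members kept in the clustering, -1.62 within cluster 6 and -0.367 to 0.621 without a library. In fibroblasts the count between metastasis and primary tumor went from 1 to 0 at resolution 1.0 and with members kept in the clustering, and to 0 to 1 without a library. Between metastasis and lung it went from 0 to 1 with DESeq2 and without the filter (Selplg). Between primary tumor and lung it went from 1 to 3 without the filter, to 2 with the replicate block, and to 0 to 2 without a library. In macrophages the count between metastasis and primary tumor went from 0 to 1 with DESeq2, to 2 without the filter and with the replicate block, and to 0 to 2 without a library. Between metastasis and lung it went from 2 to 0 at resolution 1.0, with members kept in the clustering, with at least 50 cells and within cluster 6, and to 0 to 2 without a library. Between primary tumor and lung it went from 3 to 1 at resolution 1.0 and with members kept in the clustering, and to 0 to 3 without a library (0 without primary tumor replicate 4). In neutrophils Cdh5 was called in place of 0 members, 1 between metastasis and lung without the filter, with the replicate block and with at least 50 cells, and 1 between primary tumor and lung without the filter; without a library both counts were 0 to 1. Selplg of neutrophils between metastasis and primary tumor was -0.087 to 0.204 without a library. The cause of these changes was not tested.

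The number of genes called in endothelium between metastasis and primary tumor was 1146 in the fit reported, 257 within cluster 19 and 707 with a block of the same mice. Between metastasis and lung it was 328, 502 with DESeq2, 715 without the filter, 130 at resolution 1.0, 19 within cluster 4 and 2300 in run 3 alone. The replicate numbers did not pair all samples: endothelial deviations of same-numbered metastasis and primary tumor libraries had r = 0.144, 0.0159, 0.164 and 0.166, and those with lung libraries r from -0.111 to 0.187. With the replicate block, Selp was -3.75 between metastasis and primary tumor (adjusted p = 0.00775 by edgeR), and with a block of the same mice -2.90 (adjusted p = 0.00227), with no member of the endothelial class gaining or losing a call. Depth limits Sele, which had 0 to 12 UMIs in each lung and metastasis library.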
